A study of Homo sapiens with 5 samples.

Results

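The genes described here are 8 genes of the class II antigen presentation pathway, CD74, CIITA, HLA-DRA, HLA-DRB1, HLA-DPA1, HLA-DPB1, HLA-DMA and HLA-DMB. They were taken by name from the 61220 genes that could be read from the deposited tables, by summing the reads of every transcript that GENCODE v44 places in each gene on the primary chromosomes of GRCh38. The RNA came from NCI-H1975 and HCC827, established human lung adenocarcinoma lines grown in culture, for which the labels give no drug or cytokine treatment. RNA of the lines was mixed by mass, and the 5 resulting libraries carry their mass ratios as names with NCI-H1975 written first, so that 100:0 is pure NCI-H1975 with sequin mix A and 0:100 is pure HCC827 with sequin mix B, while 75:25, 50:50 and 25:75 hold both. Sequins are synthetic spike-in RNAs. Every ratio had 1 library and every library drew on the same RNA preparation of each line, so p-values measure scatter along the mixture and do not cover differences between cultures.

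Class II molecules are pairs of an alpha and a beta chain that show peptides from endosomes to helper T cells. The invariant chain CD74 occupies the groove of new DR, DP and DQ pairs in the endoplasmic reticulum and is cut down in endosomes to the fragment CLIP, which the HLA-DM pair then exchanges for peptide. Transcription of the set depends on the coactivator CIITA, which sits on an enhanceosome of RFX, CREB and NF-Y at conserved promoter boxes. The pathway is constitutive in B cells, dendritic cells and alveolar type II cells of the lung and can be switched on by interferon-gamma in many other cells.

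The libraries held 2932250, 4058751, 3879301, 3076856 and 3092629 reads from 100:0 to 0:100. Sequin reads ran from 5475 in the 100:0 library to 0 in the 0:100 library, although the label of the latter names a sequin mix, and the slopes of the class II genes are also given without it. Of 10 epithelial markers, all had enough reads to be tested, and their summed level ran from 7085 CPM (a gene's reads per 1000000 reads of its library) in pure NCI-H1975 to 14329 CPM in pure HCC827. KRT7, KRT18 and KRT19 were the highest of them in both pure libraries. Toward HCC827 8 of the 10 rose, MUC1 fell (581 to 271 CPM) and EPCAM did not pass the threshold (435 to 323 CPM). Over all genes tested 23.5% rose and 22.3% fell, shares that stand beside the counts of every marker list. Alveolar type II markers summed to between 79.5 and 253 CPM, with SFTPC and PGC at 0 reads in every library. Of 5 tested, NAPSA (7 reads in the 100:0 library, 690 in the 0:100 library) and SFTPB (1 and 14) rose, while ABCA3 (183 and 58) and LAMP3 (33 and 3) fell, and their part in the class II results was not tested. B cell markers summed to between 9.54 and 15.9 CPM over 8 genes, with MS4A1, CD79B and BLK at 0 throughout. Macrophage and dendritic cell markers summed to between 76.4 and 91.3 CPM over 14 genes, most of it CD68, while 7 genes including PTPRC, LYZ, TYROBP and AIF1 had no read in any library.

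Together the 8 class II genes took 548, 538, 396, 253 and 146 reads, which was 187, 133, 102, 82.2 and 47.2 CPM from pure NCI-H1975 to pure HCC827. The sum was highest in pure NCI-H1975 and lowest in pure HCC827, with the mixtures in order between them. CD74 supplied 64.1% of those reads in the 100:0 library, 57.8%, 50.5% and 45.1% in the mixtures and 20.5% in the 0:100 library. Because the measurement is on bulk RNA, fewer expressing cells and less RNA per cell cannot be told apart.

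Each gene was tested for a trend with the share of HCC827 (edgeR quasi-likelihood test, adjusted over all genes tested), after TMM scaling, which corrects library totals for differences in composition. Slopes are fitted log2 changes from pure NCI-H1975 to pure HCC827 with their standard errors. Along the series 45.8% of the 13492 genes tested had an adjusted p-value under 0.05 (23.5% rose and 22.3% fell). Of the class II genes, 3 of 8 (37.5%) did: CD74 and HLA-DPB1 fell and HLA-DRB1 rose. With library totals in place of TMM, which lowers the median slope of all genes to -0.44 and leaves 26.3% of all calls rising instead of 51.3%, 6 of the 8 passed, of which 1 rose and 5 fell, beside 51% of all genes. At an unadjusted p under 0.05 the count was 4 of 8, beside 52.9% of all genes. The TMM-scaled level ran in order over the 5 libraries for 3 of the 8, beside 28.5% of all genes. The median slope of the 8 was -1.14, and the median over all genes tested was -0.035. All 8 genes had at least 10 reads in at least 2 libraries, which the test required, but HLA-DRB1, HLA-DPA1 and HLA-DPB1 met this in exactly 2 libraries, those in which they were highest, so their inclusion depended on where they were high.

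**Figure D1:**
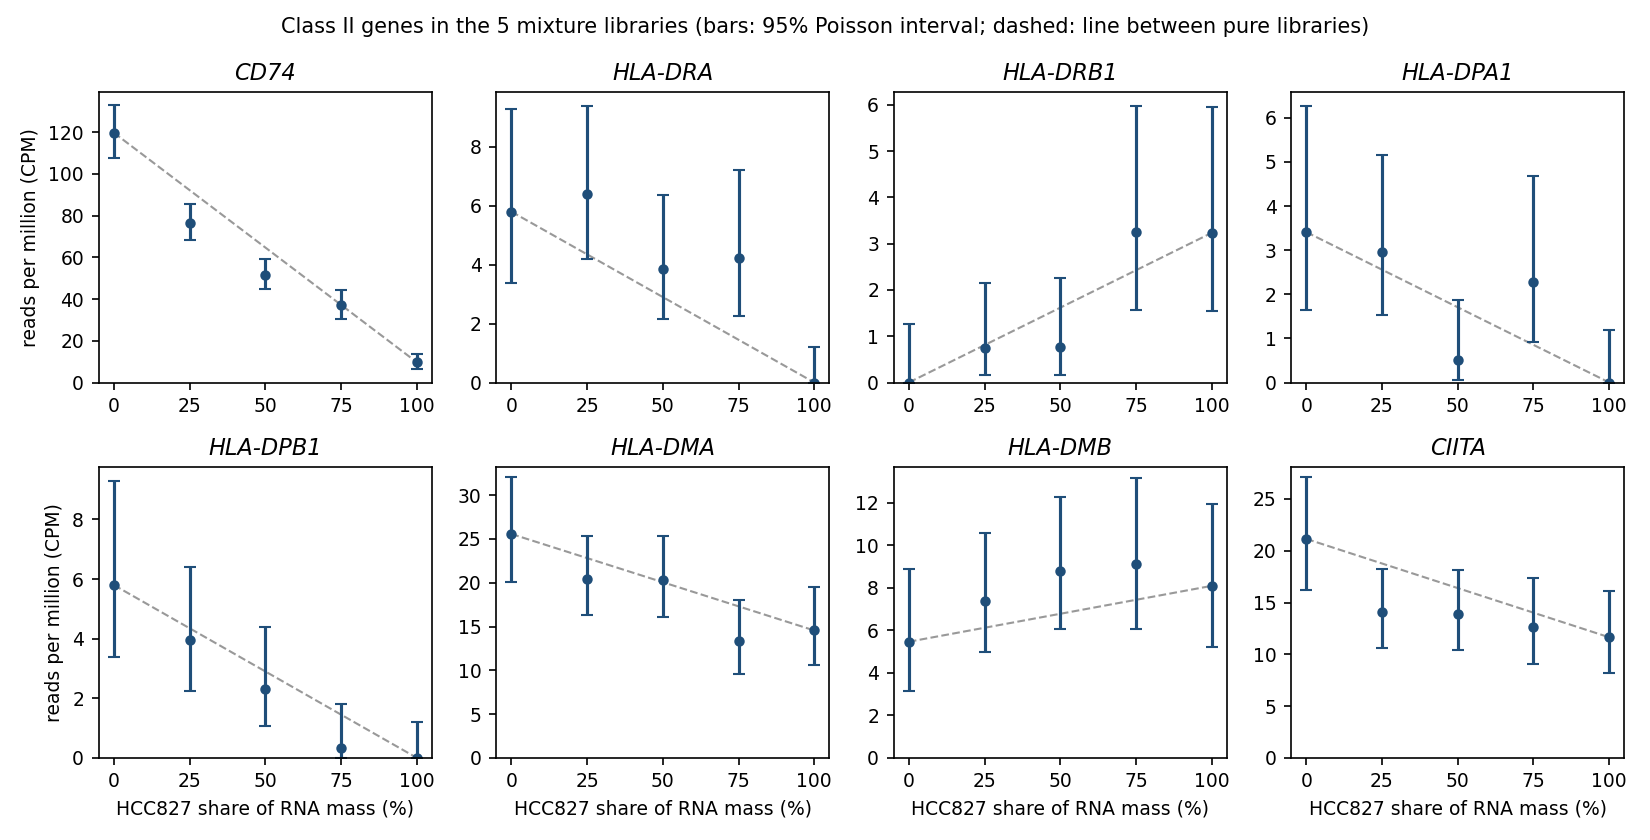
Level of each of the 8 class II genes in CPM (vertical axis, linear from 0, its own scale per gene) against the HCC827 share of RNA mass in percent. Points are single libraries with exact 95% Poisson intervals and the dashed line joins the pure libraries: CD74 descends from 120 to 9.70 CPM, HLA-DRB1 ascends from 0 to 3.23 CPM, and HLA-DRA, HLA-DPA1 and HLA-DPB1 end at 0.

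CD74 (ENSG00000019582.17, chr5:150401637-150412969, minus strand) encodes the invariant chain. It had 351 reads in the 100:0 library, 311 at 75:25, 200 at 50:50, 114 at 25:75 and 30 in the 0:100 library. As levels these were 120, 76.6, 51.6, 37.1 and 9.70 CPM. Every step toward HCC827 was lower than the one before, and the exact 95% Poisson intervals of the pure libraries (108 to 133 and 6.54 to 13.8 CPM) lay far apart. The TMM-scaled level was 9.27-fold higher in pure NCI-H1975 (95% interval 6.38 to 13.9 from counts alone). The slope was -2.50 ± 0.29 with an adjusted p-value of 2.42e-05 (edgeR quasi-likelihood). Without the 0:100 library it was -1.88 ± 0.20 (adjusted p = 4.89e-05, edgeR quasi-likelihood), and CD74 passed the threshold in every alternative run.

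GENCODE v44 lists 12 CD74 transcripts, all present in the files, of which 6 had reads. CD74-201 (9 exons, a reading frame of 296 codons) took 507 of the 1006 CD74 reads, or 50.4%, and CD74-203 (6 exons, 160 codons) took 478, or 47.5%. CD74-202 (8 exons, 232 codons) took 15 reads, or 1.49%. Exons 5, 6 and 7 of CD74-201 are shown because they separate these forms: CD74-203 lacks exons 5, 6 and 7, in all 376 bases, and CD74-202 lacks exon 7 alone. They lie on the minus strand of GRCh38 at chr5:150405085-150405180 (exon 5), chr5:150404680-150404767 (exon 6) and chr5:150403121-150403312 (exon 7). Capitals mark cysteine codons in the reading frame of CD74-201.
CD74-201 exon 5: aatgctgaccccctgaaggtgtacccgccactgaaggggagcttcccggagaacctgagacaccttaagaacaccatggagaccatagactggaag
CD74-201 exon 6: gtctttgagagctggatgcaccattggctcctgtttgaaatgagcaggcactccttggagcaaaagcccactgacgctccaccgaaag
CD74-201 exon 7: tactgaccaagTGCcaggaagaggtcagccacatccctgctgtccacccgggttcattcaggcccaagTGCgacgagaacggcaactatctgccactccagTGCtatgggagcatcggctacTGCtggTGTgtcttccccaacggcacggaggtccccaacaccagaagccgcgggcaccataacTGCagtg

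Exon 7 of CD74-201 is 192 bases long and holds 6 cysteine codons among 63 whole codons, while exons 5 (96 bases) and 6 (88 bases) hold none. It encodes the thyroglobulin-like domain of the long invariant chain, a known inhibitor of cysteine cathepsins. The lengths deposited with the counts were 3092 bases for CD74-201 and 1449 for CD74-202, against 1653 and 1270 in GENCODE v44, while CD74-203 had 1138 in both. In all, 7 of the 12 CD74 transcripts differed in length, among them CD74-212 with 584 bases deposited against 3060. The exons given are those of v44. The models the reads were assigned to may differ at their ends or within, and their exons were not seen.

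CD74-201 had 170, 156, 97, 67 and 17 reads from pure NCI-H1975 to pure HCC827, and CD74-203 had 174, 147, 99, 47 and 11. Both transcripts were highest in the 100:0 library and declined at every step in CPM. Their slopes were -2.26 ± 0.30 (adjusted p = 1.22e-05) and -2.78 ± 0.30 (adjusted p = 1.72e-06) in an edgeR quasi-likelihood fit over 31758 transcripts, of which 33.6% passed the threshold and 16.1% fell. CD74-202, with 5, 6, 3, 0 and 1 reads, was too thin to test.

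The division of reads between CD74-201 and CD74-203 was near equal in the 3 libraries with most NCI-H1975 RNA, and CD74-201 took the larger share in the other two. CD74-201 took 49.4% of the pair's reads in the 100:0 library (95% Wilson interval 44.2 to 54.7), 51.5% at 75:25 (45.9 to 57.1) and 49.5% at 50:50 (42.6 to 56.4). At 25:75 it took 58.8% (49.6 to 67.4) and in the 0:100 library 60.7% (42.4 to 76.4), where the interval rests on 28 reads. All 5 intervals overlapped. A test of isoform usage along the series (diffSpliceDGE of edgeR) gave a Simes p of 0.521 for CD74 and an adjusted p of 1.00, in a comparison that passed the threshold for 0.402% of 7455 genes. A shift in usage was thus not detected. Over all libraries the ratio of the most to the next most read transcript was 1.06 for CD74, and the median over the 7455 genes was 1.27.

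**Figure D2:**
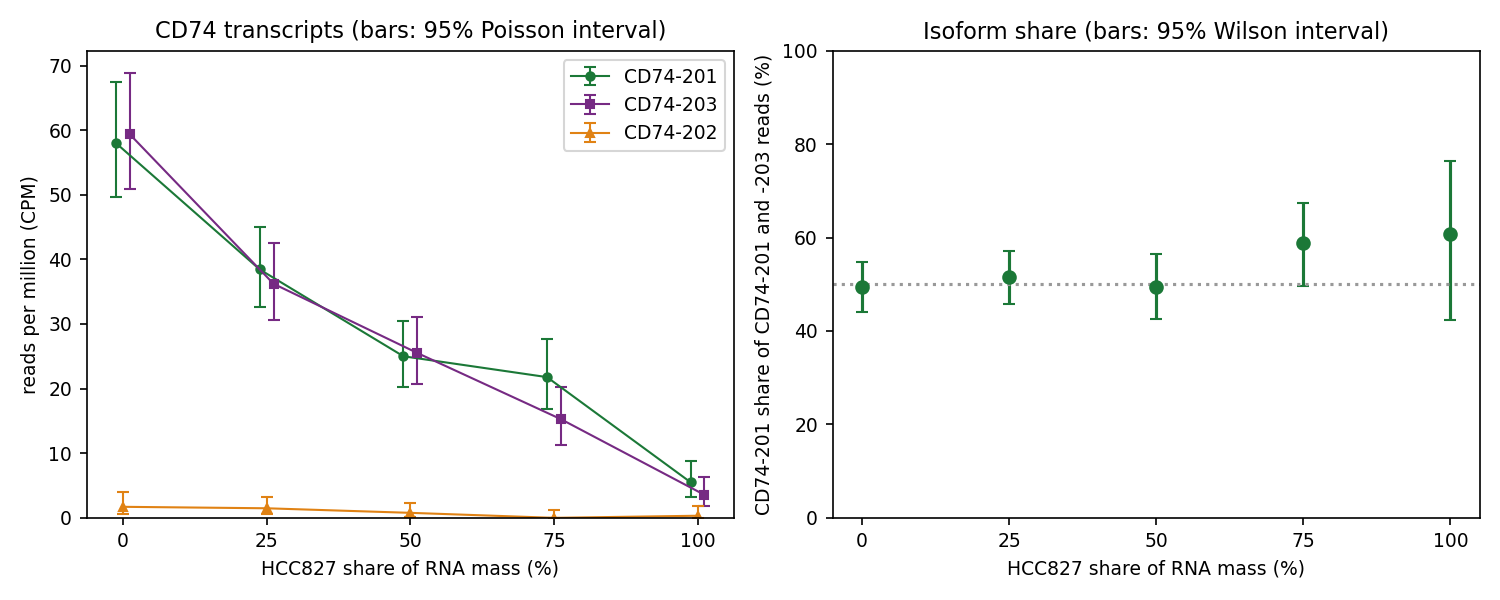
CD74 transcripts in CPM with exact 95% Poisson intervals (left, linear axis) and the CD74-201 share of CD74-201 and CD74-203 reads in percent with 95% Wilson intervals (right, linear axis from 0), both against the HCC827 share of RNA mass in percent. CD74-201 and CD74-203 descend side by side, CD74-202 stays near 0, and the share lies between 49.4% and 60.7% with overlapping intervals.

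The DR pair is the most abundant class II product of most presenting cells, and here its chains had their fewest reads at opposite ends of the series. HLA-DRA (ENSG00000204287.14, chr6:32439878-32445046, plus strand), the DR alpha chain, had 17, 26, 15, 13 and 0 reads, or 5.80, 6.41, 3.87, 4.23 and 0 CPM. It was present in the 4 libraries that hold NCI-H1975 RNA, at levels whose Poisson intervals overlap, and had no read in pure HCC827, where 3 reads would be 0.970 CPM. With pure HCC827 set to 3 reads, TMM-scaled HLA-DRA was 4.49-fold higher in pure NCI-H1975 (lower interval limit 3.27, from counts alone). Its slope of -1.80 ± 0.87 did not pass the threshold (adjusted p = 0.108, edgeR quasi-likelihood), though it did with no read filter (adjusted p = 0.0311), with library totals in place of TMM (0.0477) and without the 100:0 library (0.0315). Without the 0:100 library the slope was -0.47 ± 0.71 (adjusted p = 0.648, edgeR quasi-likelihood), and without the 25:75 library it was -2.77 ± 1.08 (0.0683). HLA-DRA-202 took 40 of the 71 reads, with a slope of -1.10 ± 0.94 (adjusted p = 0.393), and HLA-DRA-201 took 31 and fell (-2.73 ± 0.96, adjusted p = 0.0338, edgeR quasi-likelihood over transcripts).

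HLA-DRB1 (ENSG00000196126.12, chr6:32577902-32589848, minus strand), the main DR beta chain, had 0, 3, 3, 10 and 10 reads, or 0, 0.739, 0.773, 3.25 and 3.23 CPM. It was absent from the reads of pure NCI-H1975, low in the next pair of libraries and highest in the 25:75 and 0:100 libraries, which are alike. With pure NCI-H1975 set to 3 reads, the TMM-scaled level was 4.21-fold higher in pure HCC827 (lower interval limit 2.83, from counts alone). The slope was 4.15 ± 1.06 (adjusted p = 0.00643, edgeR quasi-likelihood). That call rests on 26 reads in all, and without the 25:75 or the 0:100 library HLA-DRB1 no longer reached the read minimum. Of 6 annotated HLA-DRB1 transcripts the files hold 1, HLA-DRB1-201. HLA-DRB1 sequence varies greatly between people and the reference carries a single version, so reads of other alleles may be counted elsewhere or lost, which was not tested. The related genes HLA-DRB5 and HLA-DRB6 had at most 1 read in any library.

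The DP genes lie next to each other in opposite orientation. HLA-DPB1 (ENSG00000223865.11, chr6:33075990-33089696, plus strand), the DP beta chain, had 17, 16, 9, 1 and 0 reads, or 5.80, 3.94, 2.32, 0.325 and 0 CPM. It was highest in pure NCI-H1975, lower at each step, and not detected in pure HCC827. The TMM-scaled ratio was 4.49-fold with the 0:100 library set to 3 reads (lower interval limit 3.27, from counts alone). The slope was -3.97 ± 0.95 (adjusted p = 0.00445, edgeR quasi-likelihood). Without the 0:100 library it was -3.33 ± 1.01 (adjusted p = 0.0262, edgeR quasi-likelihood). Without the 100:0 or the 75:25 library the gene no longer reached the read minimum. HLA-DPB1-211, the full chain of 258 codons, carried 37 of its 43 reads.

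HLA-DPA1 (ENSG00000231389.8, chr6:33064569-33080775, minus strand), the DP alpha chain, had 10, 12, 2, 7 and 0 reads, or 3.41, 2.96, 0.516, 2.28 and 0 CPM. The 50:50 library was lower than both of its neighbours, and pure HCC827 again had no read. With pure HCC827 set to 3 reads, the TMM-scaled level was 2.64-fold higher in pure NCI-H1975 (lower interval limit 1.78, from counts alone). The slope of -2.21 ± 1.16 did not pass the threshold (adjusted p = 0.136, edgeR quasi-likelihood). Leaving out the 25:75 library moved it to -4.44 ± 1.37 (adjusted p = 0.0304, edgeR quasi-likelihood), and leaving out the 0:100 library to -1.18 ± 1.24 (0.499). The limma-voom test gave -3.14 ± 1.07 (adjusted p = 0.0253). HLA-DPA1-242 held 17 of the 31 reads and shares 31 exonic bases with HLA-DPB1 on the other strand; whether counting used strand is not given in the sources used here.

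The HLA-DM chains are the peptide exchange catalyst and stay in endosomes. HLA-DMA (ENSG00000204257.15, chr6:32948613-32969094, minus strand) had 75, 83, 79, 41 and 45 reads, or 25.6, 20.4, 20.4, 13.3 and 14.6 CPM. The 25:75 and 0:100 libraries were the lowest, and the Poisson intervals of the 100:0 library (20.1 to 32.1 CPM) and the 0:100 library (10.6 to 19.5 CPM) did not overlap. After TMM scaling the ratio was 1.32-fold (95% interval 0.901 to 1.96), and the slope was -0.48 ± 0.27 (adjusted p = 0.155, edgeR quasi-likelihood). With library totals in place of TMM the slope was -0.89 ± 0.27 (adjusted p = 0.0137, edgeR quasi-likelihood), with protein-coding transcripts only it was -0.77 ± 0.31 (0.0552), and without the 0:100 library it was -0.66 ± 0.36 (0.193). Its reads were spread over 5 transcripts with 86, 72, 60, 58 and 46 reads, including 2 annotated as retaining an intron, and 1 read fell on a further transcript.

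HLA-DMB (ENSG00000242574.9, chr6:32934629-32941028, minus strand) had 16, 30, 34, 28 and 25 reads, or 5.46, 7.39, 8.76, 9.10 and 8.08 CPM. Pure NCI-H1975 was the lowest library, and all Poisson intervals overlapped. The TMM-scaled ratio was 1.97-fold in favour of pure HCC827 (95% interval 1.01 to 3.95). The slope of 0.92 ± 0.41 did not pass the threshold (adjusted p = 0.0814, unadjusted p = 0.0416, edgeR quasi-likelihood). It was 1.34 ± 0.56 without the 0:100 library, 0.58 ± 0.56 without the 100:0 library and 0.52 ± 0.41 with library totals, with adjusted p-values of 0.0886, 0.441 and 0.304 (edgeR quasi-likelihood). HLA-DMB reads were divided over all 6 annotated transcripts with 17 to 29 reads each, so no transcript could be tested on its own.

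CIITA (ENSG00000179583.21, chr16:10866222-10943021, plus strand), the coactivator on which the set depends, was read in both pure libraries. It had 62, 57, 54, 39 and 36 reads, or 21.1, 14.0, 13.9, 12.7 and 11.6 CPM. Pure NCI-H1975 was the highest library and the other 4 lay close together. The ratio was 1.36-fold (95% interval 0.891 to 2.12) and the slope was -0.36 ± 0.29 (adjusted p = 0.330, edgeR quasi-likelihood). Without the 100:0 library the slope was 0.028, without the 0:100 library it was -0.52 ± 0.41, and with library totals it was -0.77 ± 0.29 (adjusted p = 0.0429, edgeR quasi-likelihood). CIITA-201 carried 232 of the 248 reads (93.5%), and 830 of its 16061 exonic bases are shared with DEXI, a gene on the opposite strand that had 341 reads, so without strand the reads of that stretch cannot be told apart.

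Mixtures were then set beside the straight line between the pure libraries, which 3 inner libraries for each of 8 genes make 24 values. The line lay inside the exact 95% Poisson interval for 19 of them. CD74 was below it at 75:25 (76.6 CPM, line 92.2) and at 50:50 (51.6 CPM, line 64.7), and CIITA was below it at 75:25 (14.0 CPM, line 18.8). HLA-DRA (4.23 CPM, line 1.45) and HLA-DPA1 (2.28 CPM, line 0.853) were above it at 25:75. The interval covers counting error of the mixture only and not that of the pure libraries which set the line. Values and line are CPM without TMM scaling, whose factors ran from 1.16 (100:0) to 0.870 (0:100). After scaling CD74 was at 103 CPM (100:0), 72.0 (75:25), 51.3 (50:50) and 11.2 (0:100). The line was not drawn between scaled levels, so the departures may not hold on that scale.

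Levels were compared between genes as CPM per kilobase of deposited transcript length, and the order depends on that division. In CPM alone CIITA (21.1) stood above HLA-DRA (5.80) and HLA-DMB (5.46) in pure NCI-H1975. By the same measure CIITA (11.6) stood above CD74 (9.70) and HLA-DMB (8.08) in pure HCC827. Whether nanopore reads call for division by length was not tested. In pure NCI-H1975 the order was CD74 (72.9), HLA-DMA (28.8), HLA-DMB (5.23), HLA-DRA (4.85), HLA-DPB1 (1.95), CIITA (1.87), HLA-DPA1 (1.60) and HLA-DRB1 at 0. CD74, HLA-DMA and HLA-DMB were separated by their Poisson intervals, whereas each neighbouring pair from HLA-DMB down to HLA-DPA1 overlapped. In pure HCC827 the order was HLA-DMA (15.4), HLA-DMB (6.42), CD74 (5.57), HLA-DRB1 (2.63) and CIITA (1.24), with HLA-DRA, HLA-DPA1 and HLA-DPB1 at 0. HLA-DMA stood above HLA-DMB beyond their intervals, and each later neighbouring pair with reads overlapped. With the GENCODE v44 lengths CD74 was at 88.9 CPM per kilobase in pure NCI-H1975 and 6.84 in pure HCC827, which puts it above HLA-DMB in both.

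Around these genes, 44 others of the pathway were grouped by role, and 29 had enough reads to be tested. Of the 29, 8 rose toward HCC827 and 11 fell, 65.5% in all beside 45.8% of all genes, with a median slope of -0.33. The lists were chosen with earlier results of these data known, so the higher share is no independent result about the pathway. The same holds for the counts of each list below, beside 23.5% of all genes that rose and 22.3% that fell. With library totals 7 rose and 14 fell, beside 51% of all genes called. The remaining class II chains (HLA-DQA1, HLA-DQA2, HLA-DQB1, HLA-DQB2, HLA-DRB5, HLA-DRB6, HLA-DRB9, HLA-DOA and HLA-DOB) had at most 1 read in any library, and 5 of the 9 had none anywhere. HLA-DOA and HLA-DOB encode HLA-DO, the inhibitor of HLA-DM, and were at or near 0 in the same libraries in which both HLA-DM chains were read.

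All 7 transcription factor genes were tested, and 2 rose and 3 fell. RFXANK, the ankyrin subunit of RFX, rose from 70 reads in the 100:0 library to 126 in the 0:100 library (slope 1.42 ± 0.24, adjusted p = 0.000356, edgeR quasi-likelihood), and NFYC, the gamma subunit of NF-Y, rose from 51 to 157 (1.78 ± 0.22). The large RFX subunit RFX5 fell from 77 to 34 reads (-0.86 ± 0.29), NFYB from 93 to 42 (-1.24 ± 0.39) and CREB1 from 101 to 42 (-0.94 ± 0.24). RFX5 lost its call without the 75:25, the 25:75 or the 0:100 library (-0.54 ± 0.36 without the last) and in the DESeq2 Wald test (adjusted p = 0.0679), and its slope was -1.38 without the 100:0 library. NFYB was highest at 75:25, with 198 reads (48.8 CPM, against 31.7 CPM in the 100:0 library). It lost its call without the 25:75 or the 0:100 library, and its slope was -2.23 without the 100:0 library and -0.82 without the 75:25 library. CREB1 lost its call without the 100:0 library. RFXAP had a slope of 0.020 ± 0.62 (-0.38 with library totals) and NFYA of -0.45 ± 0.30, neither past the threshold.

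Of 7 genes of interferon-gamma signalling to CIITA, 6 were tested, and 1 rose and 1 fell. The kinase JAK1 rose from 114 to 150 CPM (slope 0.75 ± 0.12), and the receptor chain IFNGR1 fell from 36.8 to 10.3 CPM (-1.37 ± 0.28), a call lost without the 100:0 library (-0.89 ± 0.42). IRF1, which binds the inducible CIITA promoter, had a slope of 0.049 ± 0.19 (-0.36 with library totals) and did not pass the threshold. IFNGR2 (-0.035 ± 0.19), IRF2 (-0.080 ± 0.26) and JAK2 (-0.87 ± 1.09) did not pass the threshold, and SOCS1 had too few reads.

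Of 10 endosomal processing genes, 9 were tested, and 3 rose and 5 fell. CTSS, the protease that makes the last cuts of the invariant chain in presenting cells, rose from 22 reads (7.50 CPM) in pure NCI-H1975 through 93, 105 and 128 to 133 (43.0 CPM) in pure HCC827 (slope 2.36 ± 0.33, adjusted p = 0.00011, edgeR quasi-likelihood). CTSL, a related cathepsin that does so in mouse thymic epithelium, ran the other way from 811 reads (277 CPM) through 692, 483 and 288 to 87 (28.1 CPM), with a slope of -2.32 ± 0.27. Both series ran in order over the 5 libraries, in opposite directions.

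CTSH (0.79 ± 0.13) and the lysosomal thiol reductase IFI30 (1.07 ± 0.19) also rose. CTSD (-0.86 ± 0.11), the asparaginyl endopeptidase LGMN (-1.12 ± 0.17), CTSB (-0.33 ± 0.11) and SPPL2A (-1.33 ± 0.25), the membrane protease that clears the CD74 stub, fell. CTSB lost its call without the 100:0, 75:25, 50:50 or 0:100 library and with protein-coding transcripts only (-0.24, adjusted p = 0.109), and its slope was -0.74 with library totals. MARCHF8, a ubiquitin ligase of class II chains, had a slope of -0.75 ± 0.41 and did not pass the threshold.

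At the cell surface CD74 is a receptor for MIF and its relative DDT, with CD44 as signalling partner. MIF had 857 CPM in pure NCI-H1975 and 865 CPM in pure HCC827 and a slope of 0.39 ± 0.11, which passed the threshold (adjusted p = 0.0109, edgeR quasi-likelihood) but was -0.020 with library totals and 0.27 ± 0.13 without the 0:100 library (adjusted p = 0.132). DDT had a slope of 0.29 ± 0.13 (-0.12 with library totals) and did not pass. CD44 fell from 428 to 131 CPM (-1.26 ± 0.14), and the chemokine receptors CXCR2 and CXCR4 had no read in any library. Of the T cell costimulation genes, CD40 fell from 77 reads to 3 (-3.16 ± 0.43) and ICOSLG rose from 6 to 41 (2.61 ± 0.48). ICAM1 (-0.18 ± 0.17) and CD58 (-0.71 ± 0.47) did not pass, and CD80 and CD86 had no read.

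**Figure D3:**
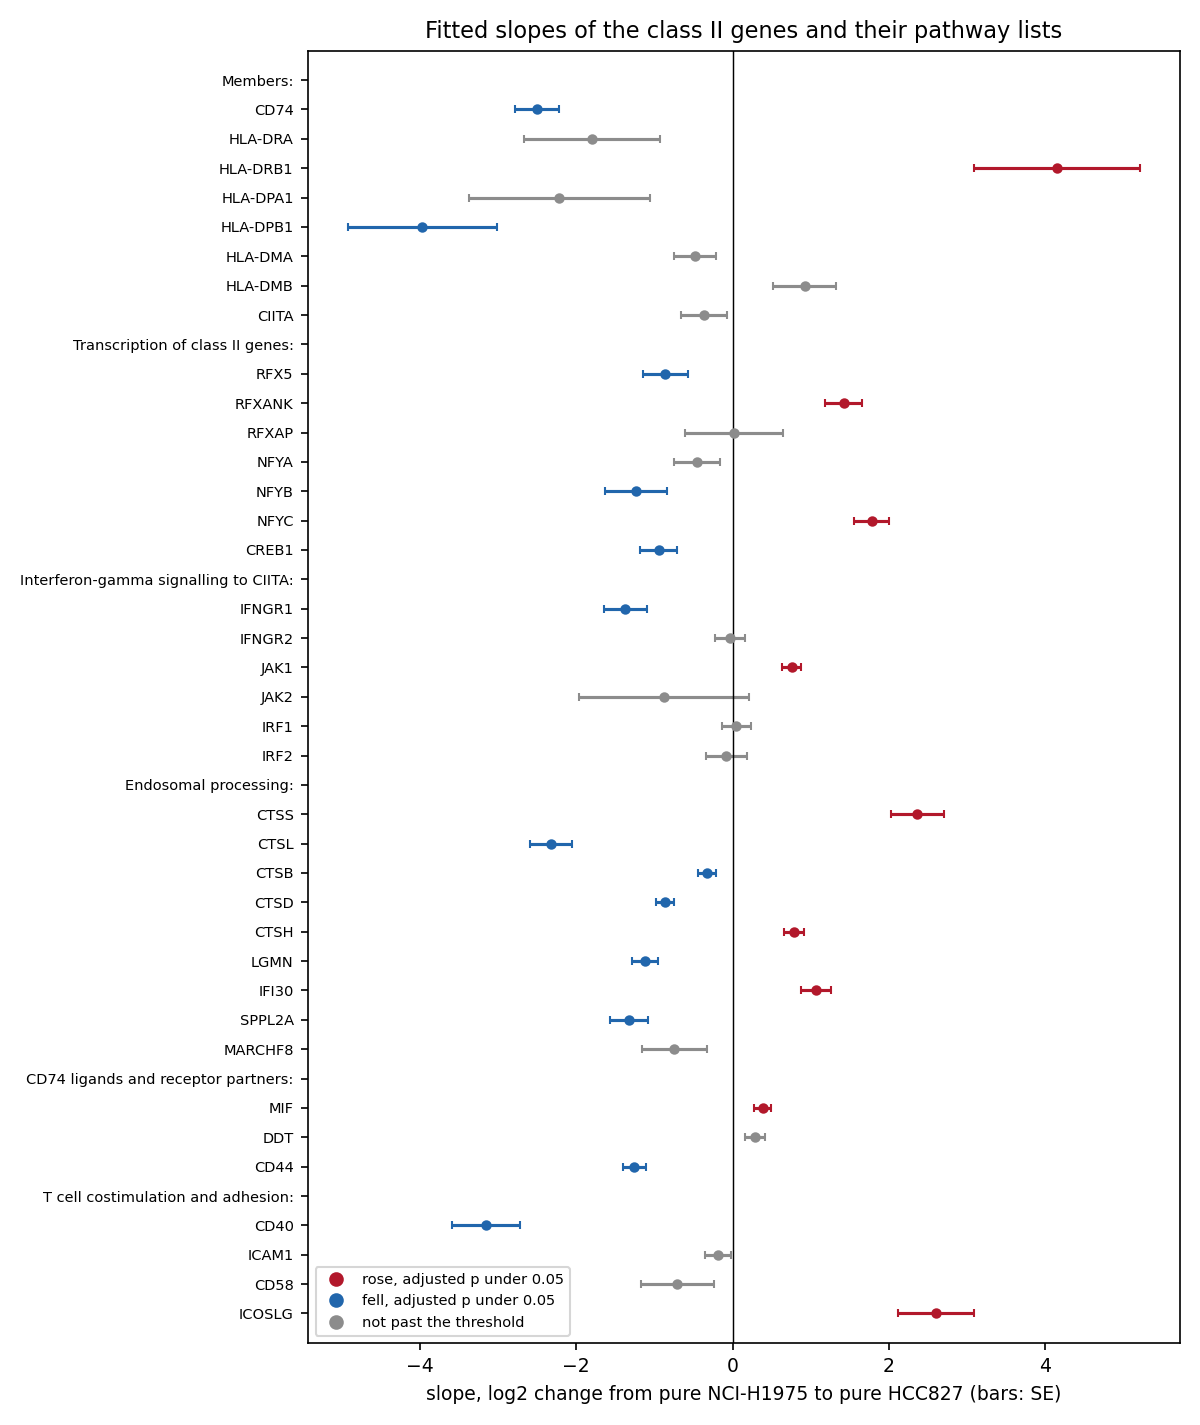
Fitted slopes (log2 change from pure NCI-H1975 to pure HCC827, horizontal axis, linear) with bars of 1 standard error for the 8 class II genes and the 29 tested genes of the surrounding lists. Red points rose, blue points fell and grey points did not pass an adjusted p of 0.05 (edgeR quasi-likelihood): HLA-DRB1 at 4.15 lies farthest right and HLA-DPB1 at -3.97 farthest left.

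Markers of other cell types were set beside the class II genes. Fibroblast markers summed to 215 CPM in pure NCI-H1975 and 6.47 CPM in pure HCC827, nearly all from COL1A1 (532 reads against 19) and COL1A2 (96 against 0), both of which fell, while DCN had no read. The part of these genes in the fall of CD74 was not tested. In the B cell list CD79A had 20, 24, 15, 12 and 4 reads and did not pass the threshold (slope -1.44 ± 0.59), and CD22 rose from 11 to 30 reads (1.77 ± 0.50). CD14 of the macrophage list had 10, 16, 5, 5 and 0 reads (-2.54 ± 1.02, adjusted p = 0.0572, edgeR quasi-likelihood). Endothelial markers summed to between 1.95 and 4.19 CPM.

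The class II genes of chromosome 6 share their region with genes of class I presentation. Between the start of HLA-DRA and the end of HLA-DPB1 (chr6:32439878-33089696) GENCODE v44 places 37 genes, of which 12 were tested, 6 of them class II genes described above. Of the other 6, PSMB8, an immunoproteasome subunit (slope 1.05 ± 0.13), and BRD2, a bromodomain protein (0.37 ± 0.12), rose, and TAP2, a subunit of the peptide transporter, fell (-1.26 ± 0.31). The remaining 3 did not pass the threshold. Called slopes of both signs lay within the stretch, HLA-DRB1 and PSMB8 above 0, TAP2 and HLA-DPB1 below it. Over all genes tested 23.5% rose and 22.3% fell, so calls of both signs are no trait of this stretch. HLA-DRB1 and HLA-DPB1 were tested only through the libraries in which they were highest.

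**Figure D4:**
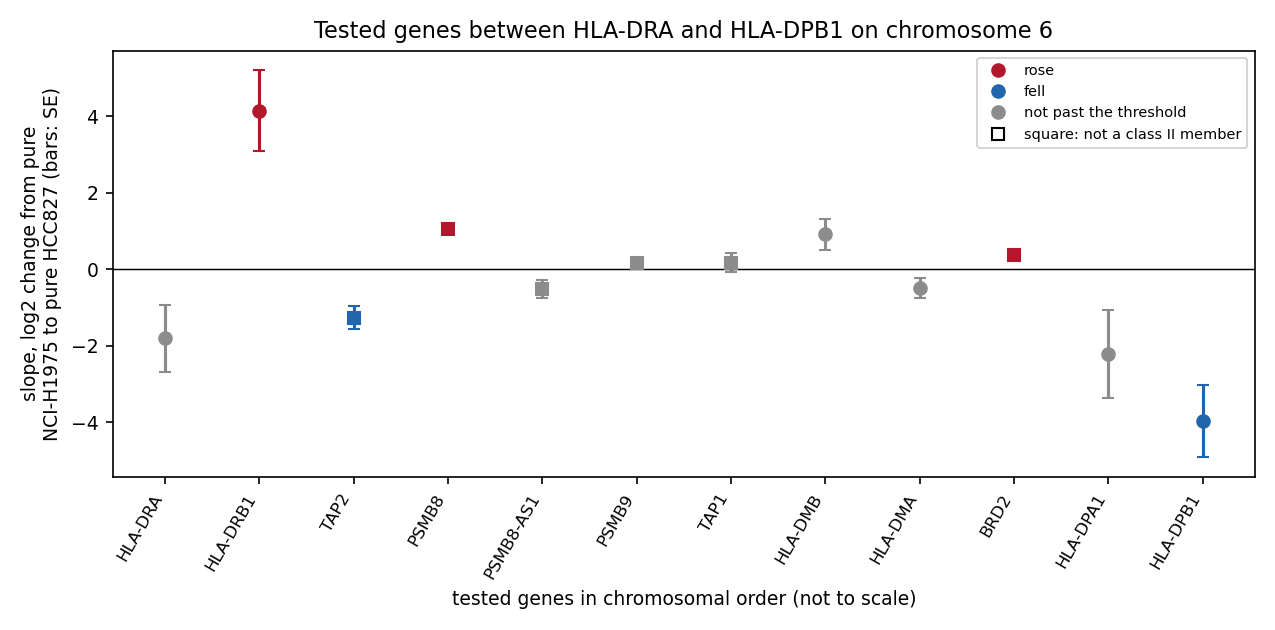
Fitted slopes (log2 change from pure NCI-H1975 to pure HCC827, linear axis, bars of 1 standard error) of the 12 tested genes in the HLA-DRA to HLA-DPB1 stretch, in genome order and not to distance. Circles are class II genes and squares are others, and called genes lie on both sides of 0.

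The 4 genes whose pattern over the 5 libraries came closest to that of CD74, the class II gene with most reads, were PTX3, TRIM9, CDKL2 and ARL9, among 12821 genes with at least 50 reads. Likeness was the root mean square difference of centred log2(TMM CPM + 1), on which PTX3 differed from CD74 by 0.024, TRIM9 by 0.063, CDKL2 by 0.067 and ARL9 by 0.080. PTX3, a secreted pentraxin, had 35, 30, 19, 10 and 1 reads, and TRIM9, a ubiquitin ligase, had 36, 28, 20, 10 and 1. CDKL2, a kinase, had 25, 19, 13, 7 and 0. These have far fewer reads than CD74, and the added 1 CPM compresses their range. Among the class II genes HLA-DRA (0.40) and HLA-DPB1 (0.44) were nearest to CD74 on this measure and HLA-DRB1 (1.86) was farthest.

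Promoter letters were read from the RefSeq windows of GRCh38.p14, each from 250 bases before to 50 after a gene's start, in which 6 of the 8 genes have an entry (7 windows). CIITA and HLA-DRA have none. The Y box core ATTGG, the NF-Y site, was in windows of 5 of the 6 genes on either strand, and in 34.6% of all 35116 windows. An X box core AGCAAC was in windows of 3 genes (HLA-DRB1, HLA-DMA and HLA-DPA1) and in 12.8% of all windows. Only HLA-DRB1 among the 6 had AGCAAC from 15 to 40 bases before ATTGG on the same strand, an arrangement found in 0.359% of all windows.

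The 3 promoters below are shown because they share the letters ACTGATGATGNTA, the longest stretch common to them with at most 1 position free, chosen after the sequences were seen, which was in 6 windows of all (0.0171%): those of HLA-DRB1, HLA-DMA, HLA-DMB, TEX50, ITPRIP and CLEC12A. Each gives the 140 bases that end at the last base before the start, on the minus strand of GRCh38.p14: chr6:32589849-32589988 for HLA-DRB1, chr6:32953098-32953237 for HLA-DMA and chr6:32941029-32941168 for HLA-DMB. Capitals mark matches to the Y box core, the X box core or the shared stretch on either strand. The X box core runs into the shared stretch in HLA-DRB1, and that of HLA-DMA lies outside the 140 bases shown.
HLA-DRB1: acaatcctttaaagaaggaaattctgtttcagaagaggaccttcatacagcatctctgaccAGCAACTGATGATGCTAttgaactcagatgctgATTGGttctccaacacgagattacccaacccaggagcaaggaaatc
HLA-DMA: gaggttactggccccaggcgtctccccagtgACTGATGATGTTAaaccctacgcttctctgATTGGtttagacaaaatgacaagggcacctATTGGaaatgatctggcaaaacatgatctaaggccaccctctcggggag
HLA-DMB: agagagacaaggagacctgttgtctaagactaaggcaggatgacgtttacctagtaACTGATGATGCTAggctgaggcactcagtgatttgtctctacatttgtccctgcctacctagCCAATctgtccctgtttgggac

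The genes with this stretch had slopes of 4.15 (HLA-DRB1), -0.48 (HLA-DMA) and 0.92 (HLA-DMB), of which HLA-DRB1 alone passed the threshold. In the windows of CD74 and HLA-DPB1, the genes that fell, ATTGG was present and an exact AGCAAC was not. The same was true of HLA-DMB, which did not fall. The HLA-DPB1 window holds AGCAAT before ATTGG, which differs from AGCAAC in its last letter, and near matches were not searched. A match is only a run of letters, and its part in any of these levels was not tested.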

How the data were processed

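Poly(A) RNA of 5 mixtures was sequenced as PCR-amplified cDNA on a nanopore PromethION flow cell, per the labels' protocols. The authors deposited 1 table per library with estimated counts of reads per transcript, unscaled, and a transcript length; minimap2 2.24, Salmon 1.9.0 and GRCh38 are named in the submitters' processing notes, and the annotation release and use of strand are not given in the sources used here. Here counts were rounded (2 values were not whole), 161 repeated identifiers summed, and 224076 of 227751 human transcripts, holding 98.6% of human reads, matched to GENCODE v44. Deposited lengths equalled those of v44 for 94.3% of them.

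Slopes came from edgeR 4.0.16 (R 4.3.3): a quasi-likelihood fit against HCC827 mass share, TMM scaling, at least 10 reads in at least 2 libraries, Benjamini-Hochberg over all features, threshold 0.05. The standard error is the slope over the square root of F. The code was tested on simulated data. A mixture is linear in expression, so a log2 slope understates ratios of genes near 0. For ratios between pure libraries, fewer than 3 reads were set to 3. Intervals are 95% and cover counting error only, since no molecular identifiers were given.

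The genes and lists were chosen with earlier results of these data known. Named are the 8 genes, all genes of the lists (1 list gene is not reported here), called genes of the chromosome 6 stretch (at most 4), the 4 genes most like CD74, CD74 transcripts with at least 1% of its reads, and some marker genes and non-called transcripts picked after their values were seen. Alternatives were other scalings, filters and tests (DESeq2 1.42.0, limma 3.58.1), leaving out each library, protein-coding transcripts only and first copies only.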

Additional observations from a re-analysis of the deposited data

How the results depend on the processing

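The count of class II genes past the threshold was 3. It became 6 with library totals in place of TMM, which moved the median slope of all genes from -0.035 to -0.44. The count was 1 of the 4 tested when 10 reads were asked in every library, where 48.7% of all genes passed. With each library left out in turn it was 2 to 3, the lowest without 75:25 or 0:100, where HLA-DPB1 or HLA-DRB1 was no longer tested. The genes counted also changed. Without 100:0 HLA-DRA passed and HLA-DPB1 was no longer tested, and without 25:75 HLA-DPA1 passed and HLA-DRB1 was no longer tested. The pathway lists had 19 calls, 15 to 18 with a library left out and 17 to 21 otherwise. Over all genes the share past the threshold was 45.8%, 51% with library totals, 30.5% without 0:100 and 35.5% without 100:0. CD74 fell in every alternative (slopes from -2.89 to -1.88 with a library left out). HLA-DPB1 and HLA-DRB1 passed in all 10 alternatives in which each was tested. Those 10 leave out the runs without a library in which the gene was highest. They also leave out the run asking 10 reads in every library, so they do not check the calls against those libraries. Both CD74 transcripts passed in all 12, and the adjusted p of CD74 isoform usage (diffSpliceDGE of edgeR) was at least 0.919 in all 11. With a floor of 10 reads the ratio for HLA-DRA and HLA-DPB1 was 1.35-fold.

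Of 371 slopes of pathway genes, 339 kept direction and side of the threshold and 15 changed sign, as did CIITA. With library totals these were RFXAP -0.38, IRF1 -0.36, MIF -0.020 and DDT -0.12. With no read filter RFXAP was -0.0071, with 10 reads in every library IRF1 was -0.0063, and with protein-coding transcripts only RFXAP was -0.27 and IRF1 -0.027. Left-out libraries gave CIITA -0.52 (0:100) to 0.028, RFXAP up to 0.22 (25:75), JAK2 down to -3.05 (100:0) and IRF1 up to 0.13 (25:75). The values with changed sign were CIITA 0.028, RFXAP -0.16, IFNGR2 0.23, IRF1 -0.029 and IRF2 0.12 (without 100:0), and RFXAP -0.40, JAK2 0.45 and IRF1 -0.14 (0:100). None of these genes passed the threshold in the reported fit except MIF; the cause was not tested.

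No paired analysis was possible because every ratio had 1 library. Transcripts on alternate haplotypes could not be added, since the annotation used lists the 25 primary sequences only. HLA-DRA, HLA-DRB1, HLA-DPA1 and HLA-DPB1 had at most 26 reads in a library, so ratios against 0 depend on the floor and on few reads.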
